A study of Mus musculus with 11 samples.

Results

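The liver endothelial genes are 10 genes of the cells that line blood vessels, of which 4 (Stab1, Stab2, Lyve1 and Oit3) mark the sinusoids of the liver and 6 (Kdr, Flt1, Tek, Pecam1, Cdh5 and Eng) are shared by endothelium in general. They were chosen by name, with earlier results of these data known, as were the other gene lists below. Every array probe whose symbol in the files, or whose current symbol, was one of these names was taken. This gave 21 of 41174 distinct probes. Of these, 17 were tested because they were well above background throughout at least 1 group, and each of the 10 genes had such a probe, so all 10 were among the 15960 genes tested. Lyve1 is listed under its older name Xlkd1 in the files.

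Liver RNA of 11 newborn mice was hybridised in 1 colour to Agilent whole mouse genome arrays to ask what constitutive Notch activity changes in the liver. The mutants were double transgenic AFP-Cre/Rosa26-lsl-NICD pups: the alpha-fetoprotein (AFP) promoter, which is active in fetal liver epithelium, drives Cre recombinase, and Cre removes a stop cassette from the Rosa26 allele so that NICD, the active intracellular part of Notch, is made. The controls were mono transgenic Rosa26-lsl-NICD pups, which carry the silent allele without Cre. There were 3 mutants and 2 controls taken on the day of birth (day 0) and 3 mutants and 3 controls taken on day 2, all on a hybrid 129 x C57BL/6 background. No group carried Cre alone, so Cre and NICD cannot be told apart, and nothing in the labels says that endothelial cells themselves express the transgene. The labels do not say whether pups of a group came from separate litters, and a p-value here covers the spread among these arrays alone.

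Liver sinusoids are lined by a specialised endothelium that is perforated by fenestrae, has no continuous basement membrane and clears waste molecules from the blood by endocytosis. Stab1 and Stab2 encode stabilins, large scavenger receptors of these cells, and Lyve1 encodes a hyaluronan receptor that is shared with lymphatic vessels. General endothelial genes encode the receptors for vascular endothelial growth factor (Kdr, Flt1) and angiopoietins (Tek), the junction proteins Pecam1 and Cdh5, and Eng, a co-receptor for ligands of the TGF-beta family.

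Values are log2 signals minus the log2 of each array's 75th percentile, so that 0 is that percentile, and they compare arrays for 1 probe but not probes with each other. Of all genes, mutant day 0 replicate 3 had 604 at least 2-fold above and 470 at least 2-fold below every other array, against at most 66 on any of the others, and it correlated at 0.954 and 0.952 with the other mutants of its day. It held the highest value of Lyve1, Oit3, Flt1, Pecam1 and Cdh5 and the lowest value of Tek and Eng among the 11 arrays. Xist and Y-linked genes gave 3 females among the day 0 mutants, 2 males among the day 0 controls, and 1 male with 2 females in each day 2 group, so that sex and genotype cannot be told apart at day 0. Precision is limited by how few arrays there are.

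All 10 genes were well above background on all 11 arrays at the probe read for them, so endothelial RNA was measured in every liver. In bulk tissue, fewer cells of a type and less RNA per cell cannot be told apart. Over both days with equal weight, 2 of the 10 genes were lower in mutants than in controls and none was higher at an adjusted p under 0.05, against 6.92% of all genes tested that were lower. Both were stabilins, and none of the 6 general endothelial genes passed. The median difference was -0.31 over the 4 sinusoidal genes and -0.19 over the 6 general genes, against -0.05 over all genes tested. The difference between these sets was not tested. With each gene set to 0 at its mean, sinusoidal minus general means overlapped between genotypes on both days. They ran from 0.09 to 0.38 in day 0 mutants and from 0.08 to 0.23 in day 0 controls. At day 2 they ran from -0.30 to -0.08 in mutants and from -0.25 to 0.03 in controls.

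Stab2 was the member with the lowest adjusted p between mutants and controls. Its signal was 0.84, 0.52 and 0.80 in day 0 mutants, against 1.27 and 0.95 in day 0 controls. At day 2 it was 0.17, -0.31 and 0.26 in mutants, against 0.73, 0.81 and 0.66 in controls. Every mutant lay below every control of its day. Such separation of small groups, here and for the genes below, was not counted over all genes. The difference over both days was -0.54 ± 0.14 (SE), 1.45-fold lower in mutants (limma, adjusted p = 0.0266). At day 2 it was -0.70 ± 0.18, 1.62-fold lower (adjusted p = 0.0298), and on slides 1, 2 and 3, which each hold 1 pair of day 2 arrays, -0.56, -1.12 and -0.40. With pup sex as a covariate the difference over both days was -0.52 and no longer passed (adjusted p = 0.131). It also did not pass without control day 0 replicate 1 or 2 (-0.46 and -0.62) or without control day 2 replicate 1 or 2 (-0.54 and -0.52), and the day 2 call was lost without any 1 of the day 2 controls or without mutant day 2 replicate 1 or 2 (-0.76 to -0.52, adjusted p of 0.0534 to 0.0986).

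Stab1 had the same direction between genotypes within each day. It measured 1.65, 1.20 and 1.68 in day 0 mutants, against 2.03 and 2.24 in day 0 controls. At day 2 it was 1.60, 1.29 and 1.73 in mutants, against 1.77, 2.01 and 1.81 in controls. Here too each mutant was below each control of its day, the nearest arrays of day 2 being a mutant at 1.73 and a control at 1.77. The difference over both days was -0.48 ± 0.14, 1.39-fold lower in mutants (limma, adjusted p = 0.0428). This call was close to the threshold: it was lost in 16 of 21 other settings, where the difference ran from -0.53 to -0.27, and with replicate number as a block it was -0.50 with an adjusted p of 0.0593. Within slides 1 and 2 the day 0 difference was -0.38 and -1.04, and within slides 1, 2 and 3 that of day 2 was -0.17, -0.72 and -0.08.

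The probe behind these Stab1 values lies on chromosome 14 at 29968111 to 29968170 (mm8, minus strand). A second Stab1 probe lies upstream at 29988514 to 29988657, where its 60 bases span an intron. It is shown because the probes gave unlike results:
Stab1 upstream probe: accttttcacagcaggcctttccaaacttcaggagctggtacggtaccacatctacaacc
No base of it is in capitals, since no single position matters here. It measured -3.95, -4.05 and -2.79 in day 0 mutants, against -3.30 and -3.58 in day 0 controls, and between -4.08 and -3.79 in day 2 mutants, against between -4.08 and -3.85 in day 2 controls. The groups overlapped on both days, with a difference over both days of -0.07 ± 0.22 (adjusted p over all probes = 0.878). Without mutant day 0 replicate 3, whose value was the highest of all arrays, the difference was -0.27 ± 0.10 (adjusted p = 0.0933), and at day 2 it was 0.02 ± 0.13. At day 0 it was then -0.56 ± 0.16, near the -0.71 ± 0.21 of the probe read for the gene. Neither passed (limma, adjusted p over all probes of 0.0908 and 0.0955). At day 2 the probe read for the gene gave -0.32 ± 0.17.

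Lyve1 did not share the direction of the stabilins. It measured 2.62, 2.74 and 3.39 in day 0 mutants, against 2.67 and 2.55 in day 0 controls. In day 2 mutants it was 1.83, 1.85 and 2.09, against 1.31, 1.79 and 1.36 in controls. The groups overlapped at day 0, and at day 2 every mutant lay above every control. The difference over both days was 0.37 ± 0.16 (95% interval 0 to 0.74, adjusted p = 0.167), whereas the interval of Stab2 was -0.85 to -0.23. A second Lyve1 probe, on chromosome 7 at 110643335 to 110643393 (mm8), gave 0.35 ± 0.16 over both days and 0.50 ± 0.21 at day 2 (adjusted p over all probes of 0.184 and 0.152). Without mutant day 0 replicate 3 that probe was higher in mutants at day 2 (0.50 ± 0.13, adjusted p = 0.0213), while the probe read for the gene missed the threshold in each of the 21 other settings. The difference between the 2 genes was not tested.

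Oit3 encodes a zona pellucida domain protein made in liver. It measured 2.13, 2.07 and 2.71 in day 0 mutants, against 2.28 and 2.17 in day 0 controls, and 1.54, 1.19 and 1.71 in day 2 mutants, against 1.81, 1.89 and 1.83 in day 2 controls. The groups overlapped at day 0 and were apart at day 2, where all mutants were lower. Its difference was -0.14 ± 0.15 over both days and -0.36 ± 0.20 at day 2 (adjusted p of 0.584 and 0.255), and a second probe on chromosome 10 at 58823708 to 58824898 (mm8) gave -0.17 and -0.30.

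**Figure D1:**
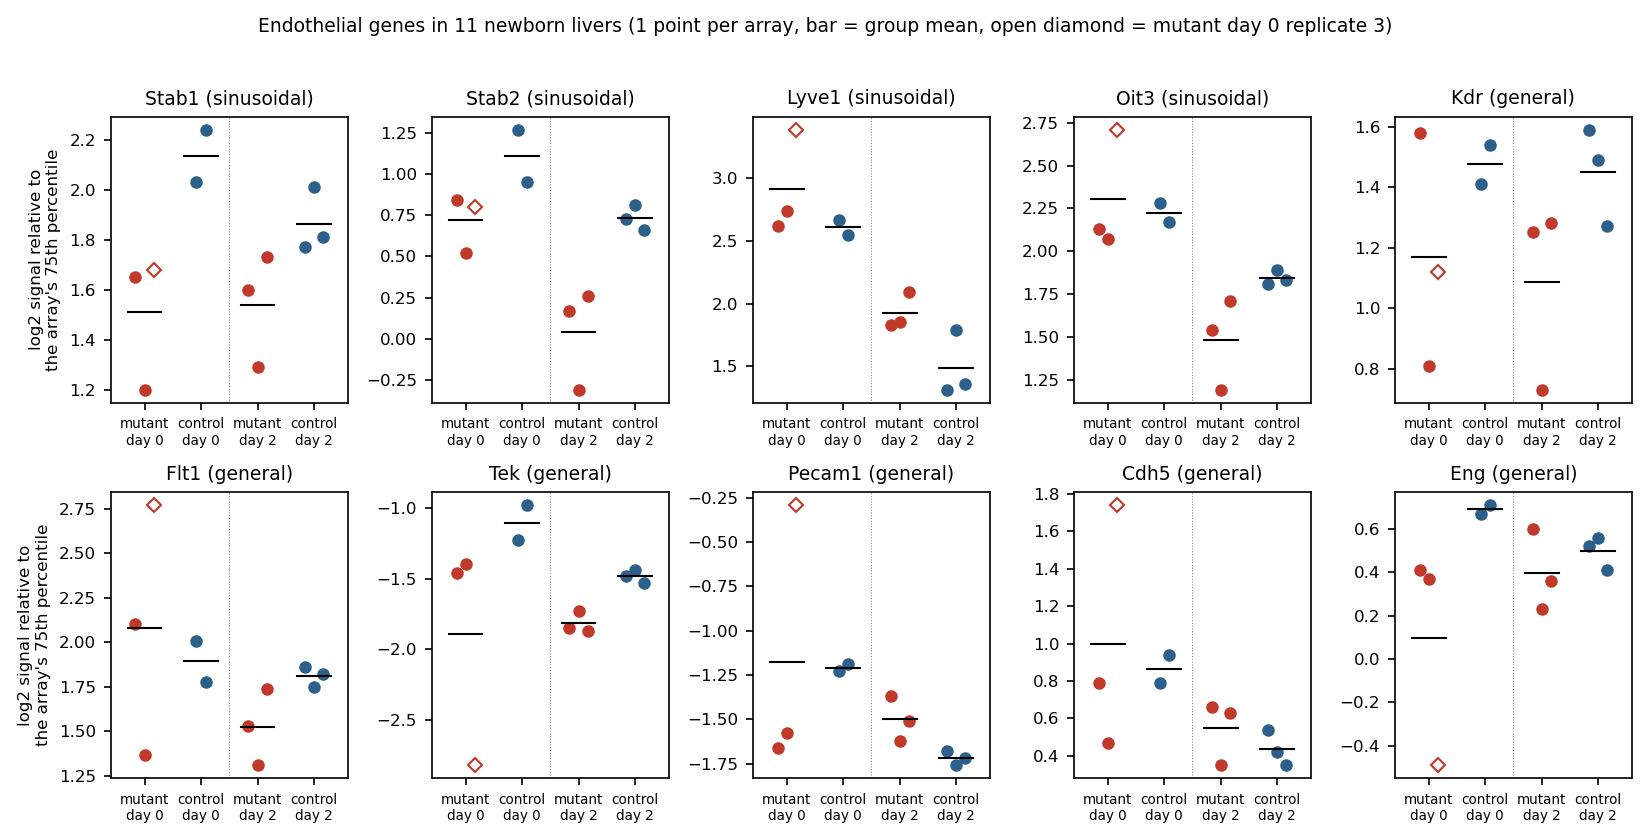
Log2 signal relative to each array's 75th percentile (vertical axis, own range in each panel) of the 10 endothelial genes in mutants and controls at day 0 and day 2; points are arrays, bars are group means and the open diamond is mutant day 0 replicate 3. Every mutant lies below every control of its day for Stab1, Stab2 and Tek, a separation that was not counted over all genes. The open diamond is the highest array for Lyve1, Oit3, Flt1, Pecam1 and Cdh5 and the lowest for Tek and Eng.

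Among the general genes, 1 of 6 had an unadjusted p under 0.05 over both days and none passed after adjustment. That gene was Tek, the receptor of angiopoietins. It measured -1.46, -1.40 and -2.82 in day 0 mutants, against -1.23 and -0.98 in day 0 controls, and -1.85, -1.73 and -1.87 in day 2 mutants, against -1.48, -1.44 and -1.53 in day 2 controls. Each mutant was below each control of its day, and mutant day 0 replicate 3 was far below the rest. The difference over both days was -0.56 ± 0.24 (adjusted p = 0.158). Without that array it was smaller and less variable, -0.33 ± 0.08, and passed (adjusted p = 0.0203), as it did at day 2 (-0.33 ± 0.10, adjusted p = 0.0429). More genes of all kinds were called without that array: 12.6% were then lower and 13.1% higher over both days, and 15.1% were lower at day 2. Members called were then 3 over both days (Stab1, Stab2 and Tek) and 2 at day 2 (Stab2 and Tek), all lower.

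Kdr, the main signalling receptor for vascular endothelial growth factor, measured 1.58, 0.81 and 1.12 in day 0 mutants, against 1.41 and 1.54 in day 0 controls. At day 2 it was 1.25, 0.73 and 1.28 in mutants, against 1.59, 1.49 and 1.27 in controls. The groups overlapped on both days, with a difference of -0.33 over both days (95% interval -0.71 to 0.05, adjusted p = 0.226). Flt1, which binds the same growth factor and limits its access to Kdr, measured 2.10, 1.37 and 2.77 in day 0 mutants, against 2.01 and 1.78 in day 0 controls. It was 1.53, 1.31 and 1.74 in day 2 mutants, against 1.86, 1.75 and 1.82 in day 2 controls. Day 0 groups overlapped and all day 2 mutants were lower, the nearest arrays being a mutant at 1.74 and a control at 1.75. The difference over both days was -0.05 (95% interval -0.55 to 0.45, adjusted p = 0.916).

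Pecam1, an adhesion protein of endothelial junctions that platelets also carry, measured -1.66, -1.58 and -0.29 in day 0 mutants, against -1.23 and -1.19 in day 0 controls. In day 2 mutants it was -1.37, -1.62 and -1.51, against -1.68, -1.76 and -1.72 in controls. At day 0 mutant replicate 3 was above and the other mutants below both controls, and at day 2 all mutants were higher. The difference over both days was 0.13 ± 0.23 (adjusted p = 0.771), and -0.09 ± 0.08 without mutant day 0 replicate 3.

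Cdh5, the cadherin of endothelial junctions, measured 0.79, 0.47 and 1.74 in day 0 mutants, against 0.79 and 0.94 in day 0 controls, and 0.66, 0.35 and 0.63 in day 2 mutants, against 0.54, 0.42 and 0.35 in day 2 controls. The groups overlapped on both days (0.12 over both days, 95% interval -0.35 to 0.59, adjusted p = 0.76). Eng measured 0.41, 0.37 and -0.49 in day 0 mutants, against 0.67 and 0.71 in day 0 controls, and 0.60, 0.23 and 0.36 in day 2 mutants, against 0.52, 0.56 and 0.41 in day 2 controls. All day 0 mutants were lower and the day 2 groups overlapped, with -0.35 over both days (95% interval -0.74 to 0.04, adjusted p = 0.216).

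By day, no member passed at day 0, where 2.28% of all genes were called, and 2 members (Stab1 and Eng) had an unadjusted p under 0.05. At day 2 Stab2 alone passed, where 6.56% of all genes were lower. The difference between the days in the effect of genotype passed for no member (limma, range -0.47 for Flt1 to 0.49 for Eng, lowest adjusted p 0.536, none with an unadjusted p under 0.05), against 0.269% of all genes. When mutant day 0 replicate 3 was left out these values were -0.12 for Flt1 and 0.20 for Eng, and Pecam1 had the largest, 0.63 ± 0.16 (unadjusted p = 0.00377, adjusted p = 0.0885), the only member then with an unadjusted p under 0.05. A larger effect at day 2 than at day 0 was therefore not shown for Stab2, whose own difference between the days was -0.31 (95% interval -0.92 to 0.30).

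**Figure D2:**
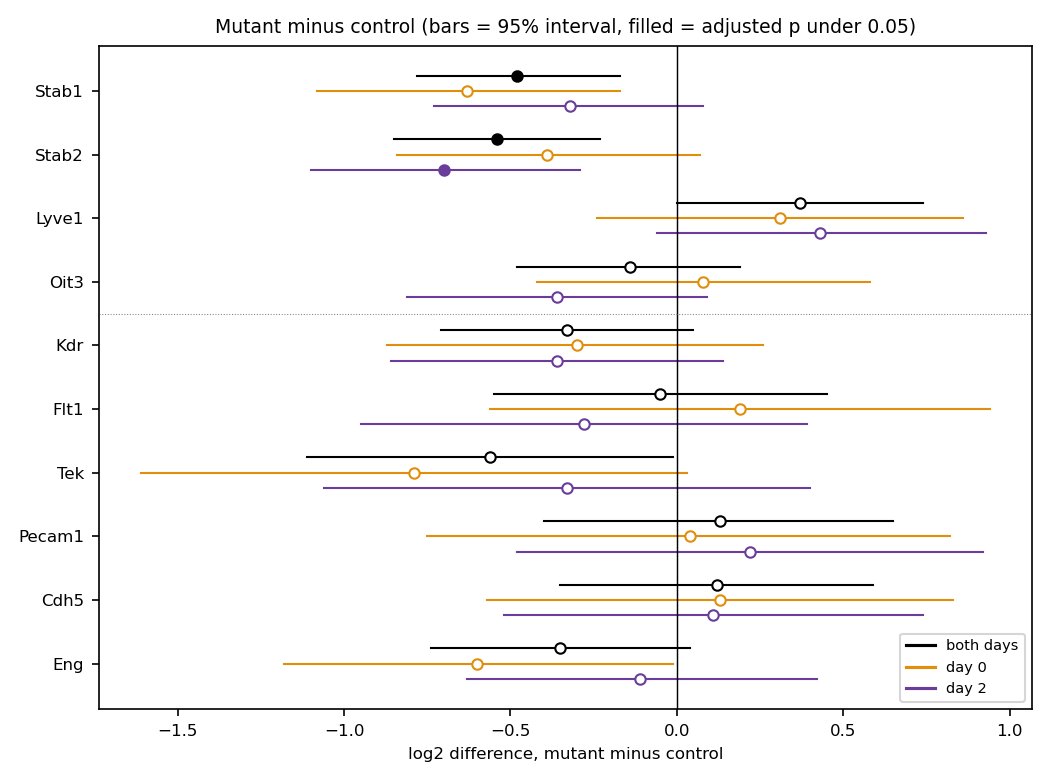
Log2 difference, mutant minus control (horizontal axis), of each endothelial gene over both days, at day 0 and at day 2, with 95% intervals; filled points have an adjusted p under 0.05. Stab1 and Stab2 have filled points left of 0, Lyve1 lies right of 0, and the intervals of the 6 general genes (below the dotted line) have no filled point.

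Of 22 other genes of sinusoidal endothelium, 6 were lower over both days, none was higher and 16 did not pass, with a median of -0.46. Of all genes, 6.92% were lower over both days and 6.56% at day 2. At day 2, 5 were lower (median -0.44, against -0.10 over all genes). F8, which encodes coagulation factor VIII, was -1.72, -2.07 and -1.72 in day 0 mutants, against -1.33 and -0.77 in day 0 controls, and -2.69, -2.53 and -2.17 in day 2 mutants, against -1.06, -0.98 and -1.24 in day 2 controls. The mutants were below the controls on both days (-1.08 ± 0.15 over both days, 2.11-fold lower, adjusted p = 0.00155). Fcgr2b, an Fc receptor with which sinusoidal cells clear immune complexes, fell by 0.77 ± 0.15 (adjusted p = 0.00856), and Dnase1l3, a secreted DNase, fell by 0.92 ± 0.19 (adjusted p = 0.0116). Clec1b, which is also a platelet receptor, fell by 1.12 ± 0.23 at day 2 (adjusted p = 0.0116). Without mutant day 0 replicate 3 the list had 7 lower over both days and 9 at day 2, where 12.6% and 15.1% of all genes were lower.

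Of 30 other general endothelial genes, 1 was higher and 3 were lower over both days, where 8.78% of all genes were higher and 6.92% lower. Their median was -0.07. Emcn, a sialoglycoprotein of veins and capillaries, was 0.54, 0.53 and 0.97 in day 0 mutants, against 0.30 and 0.55 in day 0 controls, and 1.26, 0.85 and 1.12 in day 2 mutants, against 0.23, 0.34 and -0.06 in day 2 controls. It rose by 0.58 ± 0.14 over both days (adjusted p = 0.0215) and by 0.91 ± 0.19 at day 2 (1.88-fold, adjusted p = 0.0104). Ptprb, an endothelial phosphatase that acts on Tek, fell by 0.53 ± 0.14 over both days (adjusted p = 0.0344). By day it differed by -0.82 ± 0.21 at day 0 and by -0.24 ± 0.19 at day 2 (limma, adjusted p of 0.0915 and 0.437). The difference between the days did not pass (limma, adjusted p = 0.383). Lmo2, a factor of endothelial and blood progenitor cells that erythroid cells also use, fell by 0.90 ± 0.22 over both days (adjusted p = 0.0221). Without mutant day 0 replicate 3 the counts were 3 higher and 6 lower, where 13.1% of all genes were higher and 12.6% lower.

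Of 17 tested genes of arteries, veins and lymphatic vessels, 2 were higher over both days, a share near the 8.78% of all genes. None was lower, and the median was -0.20. Hey2, a Notch target of arterial endothelium, was well above background in every mutant, in 1 of 2 day 0 controls and in no day 2 control. It averaged -3.50 in day 2 mutants, against -6.74 in day 2 controls, and was at least 5.73-fold higher there, with each control set no lower than the dimmest probe above background on its array (limma over both days, adjusted p = 0.000322). Nrp1, a co-receptor of Kdr, rose by 0.89 ± 0.23 over both days (adjusted p = 0.0308). By day it differed by 1.42 ± 0.35 at day 0 and by 0.36 ± 0.31 at day 2 (limma, adjusted p of 0.076 and 0.472). The difference between the days did not pass (limma, adjusted p = 0.336). Jag2, a Notch ligand, differed by 1.14 ± 0.35 over both days (adjusted p = 0.059). Hey2, Nrp1 and Jag2 are also used by other liver cells. Ackr1, a chemokine receptor of venules that red cells also carry, fell by 1.57 ± 0.43 at day 2 (adjusted p = 0.0367). Leaving out mutant day 0 replicate 3 gave 4 higher and 1 lower over both days, where 13.1% of all genes were higher and 12.6% lower.

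Of 22 ligands and signalling partners of the member receptors, 2 were higher over both days, a share near the 8.78% of all genes, none was lower and 20 did not pass (median 0.26). At day 2, 6 were higher and 1 lower, where 9.61% of all genes were higher (median 0.02). Id1, a target of the BMP signals that Eng helps to receive, was 2.95, 2.29 and 3.97 in day 0 mutants, against 2.25 and 2.05 in day 0 controls, and 3.00, 3.12 and 3.30 in day 2 mutants, against 1.43, 1.54 and 1.46 in day 2 controls. Every mutant was above every control of its day (2.45-fold over both days, adjusted p = 0.0094). Bmpr2, the type II receptor of the same pathway, rose by 0.54 ± 0.15 over both days (adjusted p = 0.0347), and Tgfb1 fell by 0.64 ± 0.19 at day 2 (adjusted p = 0.0473). With mutant day 0 replicate 3 left out, 5 were higher and 5 lower over both days, where 13.1% of all genes were higher and 12.6% lower.

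Markers of other cells moved beside these genes. Of 12 Kupffer cell and macrophage markers, 5 were lower over both days and none was higher (median -0.61), where 6.92% of all genes were lower. Without mutant day 0 replicate 3, 7 were lower, against 12.6% of all genes. Adgre1 fell by 0.64 ± 0.14, Csf1r by 0.61 ± 0.12 and C1qb by 0.57 ± 0.14 (adjusted p of 0.0161, 0.00758 and 0.0228). The mean of the list, with each gene set to 0 at its mean over the arrays, ran from -0.56 to 0.28 in day 0 mutants and from 0.45 to 0.63 in day 0 controls. At day 2 it ran from -0.66 to -0.23 in mutants and from -0.01 to 0.23 in controls. The range of the 4 sinusoidal members was 0.01 to 0.53 in day 0 mutants and 0.36 to 0.44 in day 0 controls, and -0.62 to -0.17 in day 2 mutants and -0.21 to 0 in day 2 controls. Some macrophages also make Stab1 and Lyve1, and the part of these cells in the Stab1 result was not tested.

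Of 10 megakaryocyte and platelet markers, 3 were lower over both days (median -0.95), and all 10 were lower without mutant day 0 replicate 3. The mean of this list was -1.05 to 0.80 in day 0 mutants and 0.34 to 0.68 in day 0 controls, and -0.65 to -0.43 in day 2 mutants and 0.43 to 0.59 in day 2 controls. Ppbp fell by 1.06 ± 0.30 and Gp1bb by 0.91 ± 0.24 (adjusted p of 0.041 and 0.0302). Of 10 erythroid markers 4 were lower over both days and 6 at day 2 (9 and 10 without that array), among them Gata1 (-1.06 ± 0.17 over both days, adjusted p = 0.00285). Of 9 hepatocyte markers 4 were lower over both days (7 without that array), among them Tat, an enzyme of tyrosine breakdown (-2.21 ± 0.21, adjusted p = 0.000162). The mean of the erythroid list was -0.47 to 0.57 in day 0 mutants and 0.66 to 0.88 in day 0 controls. At day 2 it was -1.49 to -0.75 in mutants and 0.19 to 0.58 in controls. The mean of the hepatocyte list was -1.44 to -0.69 in day 0 mutants and 0.24 to 0.40 in day 0 controls. At day 2 it was -0.44 to 0.19 in mutants and 0.70 to 1 in controls. Of 13 stellate cell and fibroblast markers none passed over both days and 3 were higher at day 2, among them Lum (1.19 ± 0.30, adjusted p = 0.0275). Ecm1 went the other way without passing, at 2.25, 2.26 and 2.62 in day 2 mutants, against 3.14, 3.22 and 3.02 in day 2 controls. Without mutant day 0 replicate 3, 1 marker was higher and 1 lower over both days, and 7 were higher and 1 lower at day 2. Of 8 blood progenitor markers 1 was lower over both days, Gata2 (-0.59 ± 0.15, adjusted p = 0.0273), and 2 were without that array. Of all genes, 6.92% were lower over both days, and 6.56% were lower and 9.61% higher at day 2. Without mutant day 0 replicate 3, 12.6% were lower and 13.1% higher over both days, and 15.1% were lower at day 2. Every marker counted here was above background in at least 1 group, and the part of these cells in the results for the endothelial genes was not tested.

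**Figure D3:**
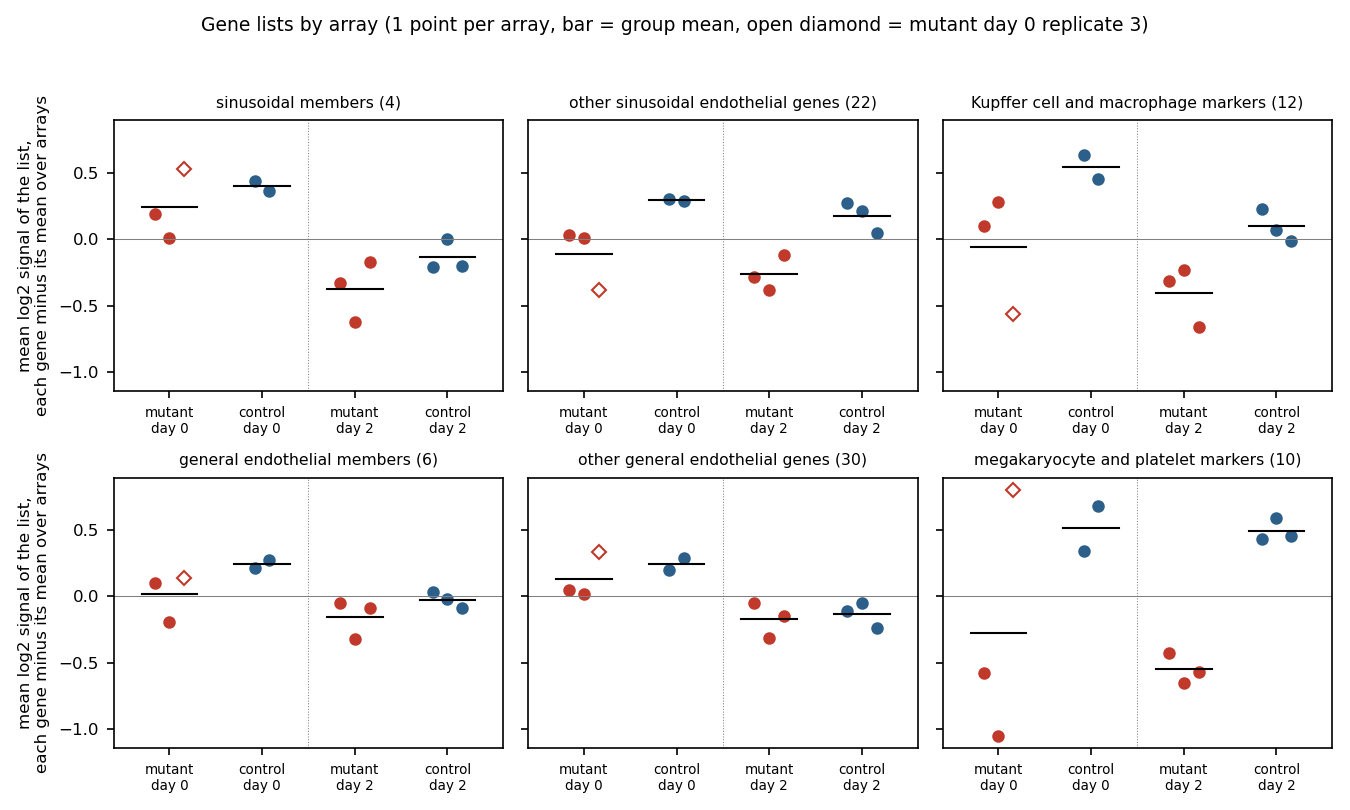
Mean log2 signal of 6 gene lists on each array (vertical axis, each gene set to 0 at its mean over the 11 arrays) in mutants and controls at day 0 and day 2; points are arrays, bars are group means, the open diamond is mutant day 0 replicate 3 and the number of genes stands in brackets. For the 22 other sinusoidal genes and the 12 macrophage markers every mutant lies below every control of its day, while the open diamond lies above every other array for the 10 megakaryocyte markers. The erythroid and hepatocyte lists, which are not drawn, were separated on both days in the same way.

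Between birth and day 2, 3 of the 4 sinusoidal genes fell in mutants and 1 fell in controls, and none of the 6 general genes passed in either genotype or had an unadjusted p under 0.05. Of all genes, 11.3% were lower at day 2 in mutants and 5.73% in controls. Lyve1 had the largest change of the 10 in both genotypes: it averaged 1.92 ± 0.15 in day 2 mutants and 2.92 ± 0.41 in day 0 mutants (SD, n = 3 each). In controls it averaged 1.49 ± 0.26 at day 2 (SD, n = 3) and 2.61 ± 0.08 at day 0 (SD, n = 2). The day 2 arrays lay below the day 0 arrays throughout, 1.99-fold lower in mutants (limma, adjusted p = 0.0153) and 2.18-fold lower in controls (adjusted p = 0.0227). Its second probe gave -1.07 and -1.37 (adjusted p over all probes of 0.0105 and 0.00962). The call in controls was lost with pup sex as a covariate (-1.23, adjusted p = 0.0823), and without either day 0 control or without control day 2 replicate 1 or 3 (-1.18 to -1.04); that in mutants was lost without mutant day 2 replicate 2 (-0.96, adjusted p = 0.0527).

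Oit3 fell by 0.82 ± 0.20 in mutants (1.77-fold lower at day 2, adjusted p = 0.0214), and the difference in controls was -0.38 ± 0.22 (adjusted p = 0.288). Stab2 fell by 0.69 ± 0.18 in mutants (1.61-fold lower, adjusted p = 0.029), and the difference in controls was -0.37 ± 0.20 (adjusted p = 0.253). For both genes all day 2 arrays were below all day 0 arrays in each genotype, and the test of the difference between genotypes is the one between the days above, which neither passed. The Oit3 call was lost without mutant day 2 replicate 1 or 2 (-0.85 and -0.68), and the Stab2 call without mutant day 0 replicate 1 or mutant day 2 replicate 1 or 2 (-0.75 to -0.51) and with the sex covariate (-0.70, adjusted p = 0.0603). Stab1 differed little over time, by 0.03 ± 0.18 in mutants and -0.27 ± 0.20 in controls (adjusted p of 0.917 and 0.398). The mutants' and controls' changes share no arrays.

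The general genes differed over time by -0.55 (Flt1) to 0.30 (Eng) in mutants and by -0.51 (Pecam1) to -0.02 (Kdr) in controls. Without mutant day 0 replicate 3, 4 members were lower at day 2 in mutants (Stab2, Lyve1, Oit3 and Tek), against 12.1% of all genes, and 3 in controls (Lyve1, Pecam1 and Tek), against 13.5%. Tek then fell by 0.38 ± 0.12 in each genotype (adjusted p of 0.0482 in mutants and 0.0434 in controls), and Pecam1 fell by 0.51 ± 0.11 in controls (adjusted p = 0.0132).

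**Figure D4:**
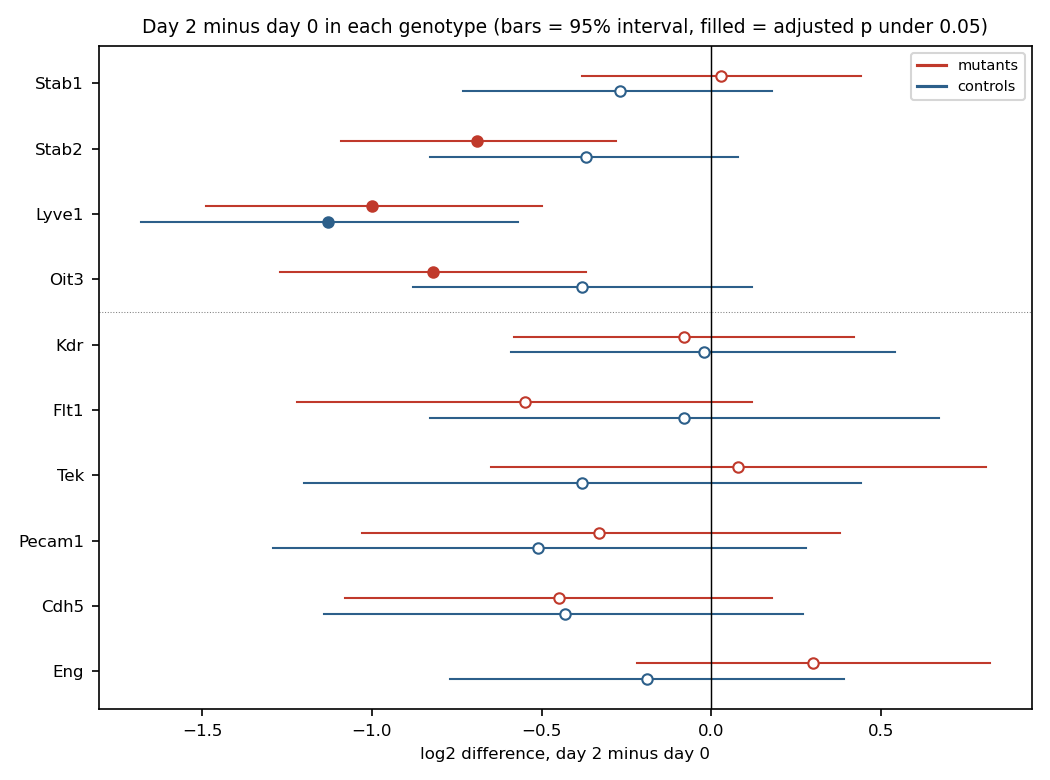
Log2 difference, day 2 minus day 0 (horizontal axis), of each endothelial gene in mutants and in controls, with 95% intervals; filled points have an adjusted p under 0.05. Lyve1 has filled points near -1 in both genotypes, Stab2 and Oit3 in mutants, and no general gene has one.

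Several probes of a gene did not always agree. For Flt1, the probe read for the gene (chromosome 5, 147872564 to 147872623, mm8, minus strand) and its neighbour (147872637 to 147872696) moved alike. Another probe lies further 5′ within the gene at 147948554 to 147948613, and the files tie it to another transcript record. It measured -1.98, -2.21 and 1.46 in day 0 mutants, against -2.25 and -2.41 in day 0 controls. At day 2 it was -3.31, -3.25 and -3.29 in mutants, against -3.35, -3.12 and -3.51 in controls. Mutant day 0 replicate 3 was 10.8-fold above the next highest array, the other day 0 mutants lay closely above both day 0 controls, and the day 2 groups overlapped. Without that array the probe fell between birth and day 2 by 1.19 ± 0.14 in mutants and by 1.00 ± 0.14 in controls (adjusted p over all probes of 0.00195 and 0.00285), whereas the probe read for the gene differed by -0.21 and -0.08. With that array it missed the threshold (-2.37 ± 0.78 and -1 ± 0.87, adjusted p of 0.0599 and 0.487). Which Flt1 transcripts it reads was not tested.

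Tek has a second probe upstream on chromosome 4 at 94233814 to 94233873 (mm8, plus strand), while the probe read for the gene lies at 94366188 to 94366246. The upstream probe measured -5.99, -5.34 and -6.09 in day 2 mutants, against -4.62, -4.87 and -4.82 in day 0 mutants. In controls it was -5.67, -5.02 and -5.65 at day 2, against -4.40 and -4.23 at day 0. It was lower at day 2 in each genotype (-1.03 ± 0.24 and -1.13 ± 0.27, adjusted p over all probes of 0.0193 and 0.0313) and was above background on 9 of 11 arrays. The second Cdh5 probe gave 0.05 over both days, near the 0.12 of the probe read for the gene. The 4 probes that were not above background in any group, 1 of Kdr, 2 of Flt1 and 1 of Pecam1, carry no result.

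**Figure D5:**
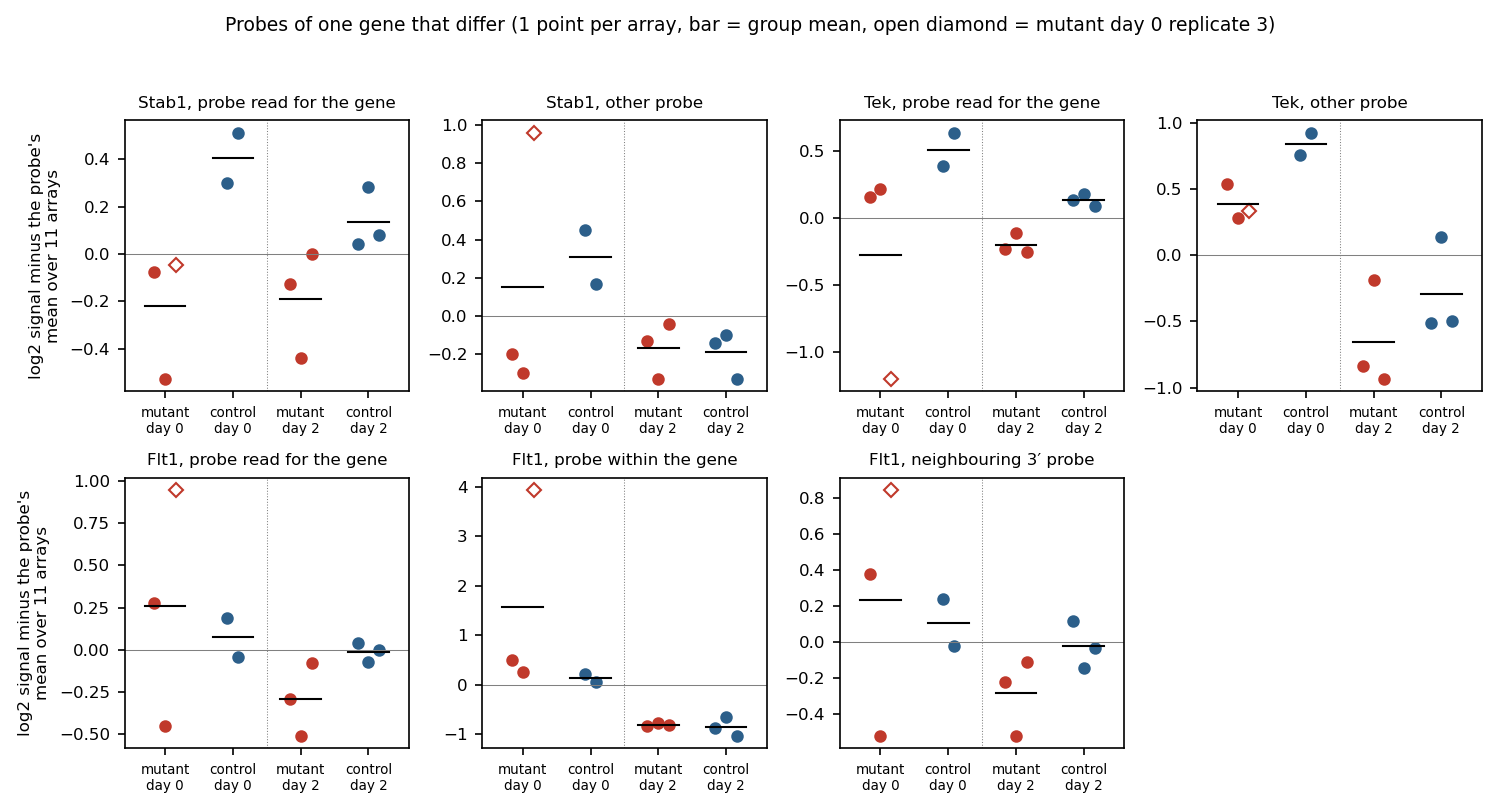
Log2 signal minus the probe's own mean over the 11 arrays (vertical axis, own range in each panel) for 2 probes of Stab1, 2 of Tek and 3 of Flt1, in mutants and controls at day 0 and day 2; points are arrays, bars are group means and the open diamond is mutant day 0 replicate 3. The Flt1 probe within the gene is 10.8-fold above the next highest array on the open diamond, and the other Tek probe is lower at day 2 than at day 0 in both genotypes.

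Promoter sequences were held in the RefSeq table (GRCm38.p6) for 6 of the 10 genes. Each entry, 250 bases before to 50 after the start, was searched on both strands for sites of RBPJ, the DNA-binding partner of NICD (TGTGGGAA or CGTGGGAA), and for ETS sites, which are typical of endothelial genes (CCGGAAGT or ACAGGAAGT). The site CGTGGGAA was in the Kdr promoter, on the strand of the gene at position -130 from its start, and in 0.734% of 32851 promoters. The other motifs were in none of the 6 promoters and in 1.86%, 3.89% and 1.03% of all promoters. A match is a description of letters, and Kdr was not among the genes that passed. The 250 bases before the start of Kdr, with the match in capitals, and of the stabilins, which had no match, are given to show what was searched:
Kdr, chr5:75978456-75978705, minus strand: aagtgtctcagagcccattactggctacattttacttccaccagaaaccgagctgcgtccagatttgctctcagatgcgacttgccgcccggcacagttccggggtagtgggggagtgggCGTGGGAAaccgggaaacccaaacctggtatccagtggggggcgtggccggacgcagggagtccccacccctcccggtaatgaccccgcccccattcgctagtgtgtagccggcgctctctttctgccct
Stab1, chr14:31168642-31168891, minus strand: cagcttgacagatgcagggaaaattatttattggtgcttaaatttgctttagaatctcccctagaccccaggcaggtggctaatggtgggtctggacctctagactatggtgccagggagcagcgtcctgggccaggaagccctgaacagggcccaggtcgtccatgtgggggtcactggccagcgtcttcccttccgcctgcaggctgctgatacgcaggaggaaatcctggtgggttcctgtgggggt
Stab2, chr10:87007943-87008192, minus strand: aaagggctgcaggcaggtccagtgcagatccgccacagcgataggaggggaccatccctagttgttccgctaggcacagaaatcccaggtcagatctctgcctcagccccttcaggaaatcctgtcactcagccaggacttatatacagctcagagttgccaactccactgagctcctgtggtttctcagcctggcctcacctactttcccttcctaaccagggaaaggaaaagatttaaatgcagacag

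Across the 11 arrays, the genes whose level was most like the mean profile of the 4 sinusoidal members, among 15222 genes ranked, were Mrgpra2b (Pearson r = 0.975), Ccnt2 (0.974), Thsd1 (0.971), Khnyn (0.968), Zeb1 (0.967) and Marf1 (0.961). Thsd1 is a membrane protein made by endothelial cells and Zeb1 is a transcription factor of mesenchymal cells. For the 6 general members they were Reln (0.949), Ccdc141 (0.92), P2ry1 (0.913), Ep300 (0.905), Ngp (0.903) and Col20a1 (0.901). Reln encodes reelin, a secreted protein that lymphatic endothelium and hepatic stellate cells make. These correlations describe arrays that share groups, days and scaling.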

How the data were processed

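The deposited file of each array holds, per the file headers, the processed spot intensity of Agilent Feature Extraction 9.5.3.1, background-subtracted on that array and unscaled between arrays. A log2 table that the authors deposited, made with RMA per the submitters' processing notes, served as an alternative. Here log2 of the processed intensity was taken minus the 75th percentile of the array (607.72 to 1301.5). Outlier and control spots were left out, and probes well above background throughout at least 1 group were kept (27151 of 41174). The share of spots well above background was 63.27% to 68.63%. A gene was read from its brightest tested probe, on mm8 positions from the files. Genes were fitted with limma 3.58.1 under R 4.3.3 in 4 groups over all 11 arrays, and adjusted by Benjamini-Hochberg over 15960 genes at 0.05; probes were adjusted over 24808 probes.

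The 10 genes and the lists were chosen with earlier results of these data known. Each other list is represented by up to 3 genes with the smallest p over both days and up to 2 at day 2, and the named genes are all members and these. Replicates 1, 2 and 3 lie on slides 1, 2 and 3, and slide 3 has no day 0 control; the position on the slide and the group cannot be told apart. Same-numbered mutants and controls of day 2 had correlated deviations from their group means (0.23 to 0.29, others -0.211 to -0.0608), so the numbers pair these arrays. At day 0 the values were smaller, 0.0622 and 0.092 in 2 pairs (others -0.092 to 0.0194), too few to settle a pairing. In the remaining pairs of groups the values of same-numbered arrays overlapped the others. The alternatives were normexp background, quantile scaling, the authors' table, 2 other filters, outlier spots kept, the mean of a gene's probes, a fit per probe, the replicate block, pup sex and leaving out each array. The steps were tested on simulated data. Of 100 genes changed by 1 log2 unit, 68 were recovered over both days, 21 at day 0 and 32 at day 2. Over time 35 were recovered in mutants and 31 in controls, and 4 for the difference between the days. Of 100 genes changed by 2 log2 units, 66 to 94 were recovered. A gene that did not pass, at day 0 or for that difference above all, is therefore not shown to be unchanged.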

Additional observations from a re-analysis of the deposited data

Results flagged for a closer look

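The signal of the Flt1 probe within the gene, which is outside the main measurement of Flt1, was 1.46 on mutant day 0 replicate 3, more than 2-fold above every control array (highest control -2.25). The other day 0 mutants were at -1.98 and -2.21. The cause was not tested, and this array stood apart for many other genes. No member's effect differed between the days by the test of that difference, and groups of 2 or 3 arrays were too small for a check on single outlying arrays.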

How the results depend on the processing

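Of 50 results for single genes (10 genes in 5 comparisons), 37 kept their direction under all 21 alternatives. Over both days 2 members passed, and 1 with quantile scaling, the authors' table, no filter on dim probes, the mean of a gene's probes or the replicate block, 0 with pup sex as a covariate and 0 to 3 when 1 array was left out. At day 2 the count was 1, and 0 to 2 when 1 array was left out; for mutants over time it was 3, and 0 to 4. For controls over time it was 1, 0 with pup sex and 0 to 3 with 1 array left out. No member passed at day 0 or for the difference between the days under any alternative. The paired fit with the replicate block changed no other count of called members by over 1.5 times. The differences that turned in sign had not passed in the comparison concerned. For Stab1 in mutants over time they were -0.014 with quantile scaling and -0.15 with the mean of its probes, and -0.13 to 0.15 with 1 array left out. Under the replicate block Oit3 at day 0 was -0.025 and Pecam1 at day 0 -0.11. With the mean of its probes Flt1 over both days was 0.21 and Tek in mutants over time -0.48, and Tek was -0.057 with normexp background. With 1 array left out, in ranges over the arrays, Oit3 at day 0 was -0.12 to 0.20; Kdr over time was -0.26 to 0.12 in mutants and -0.094 to 0.067 in controls; Flt1 was -0.22 to 0.13 over both days, -0.16 to 0.54 at day 0 and -0.19 to 0.03 in controls over time. Tek in mutants over time was -0.38 to 0.33, Pecam1 was -0.095 to 0.25 over both days, -0.41 to 0.28 at day 0 and -0.57 to 0.12 in mutants over time, and Cdh5 was -0.065 to 0.25 over both days and -0.24 to 0.39 at day 0. The cause of these changes was not tested. The counts of the lists without mutant day 0 replicate 3, and the fits of Flt1 and other second probes without it, were chosen after seeing the data.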
